A study of Mus musculus with 7 samples.

Results

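The necroptosis and death receptor signalling genes Ripk1, Ripk3, Mlkl, Zbp1, Fadd, Casp8, Cflar and Birc3 were followed in mouse bone marrow-derived macrophages (BMDMs). They were chosen by name for their place in the pathway, with earlier results of these data known. Their counts set against all genes are therefore a description only. All 8 were found among the 48440 genes of the LPS table and the 55352 genes of the transduction table, and all 8 passed the filter on low values in both (a mean of at least 1), as did 17854 genes of the LPS table and 11218 genes of the transduction table.

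The 7 samples came from BMDMs of C57BL/6 wild-type mice, grown from marrow with M-CSF. In the first experiment, cells were stimulated with lipopolysaccharide (LPS, a bacterial cell wall component sensed by Toll-like receptor 4) at 100 ng/mL and collected at 0, 2 and 4 h, each time point being a lone library (n = 1). The second used an adeno-associated viral vector (AAV) for 48 h, which carried GFP (AAV-GFP, n = 2) or SHISA3 (AAV-SHISA3, n = 2), a transmembrane adaptor protein. The CAG promoter, which is active in most cell types, drove both transgenes, and both groups therefore carry the vector; no untransduced sample of this experiment was analysed here. Nothing in the labels says whether the samples of a group came from separate animals or cultures, so the p-values measure only the spread between these samples, which may be technical.

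Binding of tumour necrosis factor to its receptor assembles a complex around the kinase RIPK1, in which ubiquitin ligases such as cIAP2 (Birc3) hold RIPK1 in a survival-promoting state. When this brake is released, the adaptor FADD recruits caspase-8 (Casp8), whose activity is tuned by the related protein cFLIP (Cflar), and the cell dies by apoptosis or survives. Where caspase-8 is inactive, RIPK1 or the nucleic acid sensor ZBP1 engages the kinase RIPK3, which phosphorylates MLKL, and MLKL ruptures the plasma membrane in necroptosis. Macrophages stimulated through Toll-like receptors express this machinery and are a standard cell in which both forms of death are studied.

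The LPS libraries held 7263258 to 32659392 reads, the 2 h library being the shallowest. Among macrophage marker genes all 9 were expressed above the filter in the transduction table, while all 6 dendritic cell markers and all 6 T and B cell markers stayed under 1 TPM (a unit scaled for depth and transcript length) in the 4 transduced samples. Of 8 neutrophil markers 7 were tested, and all 7 were higher in both AAV-SHISA3 samples than in both AAV-GFP samples, against 18.2% of all genes tested, and 2 of them passed the test. The summed level of the neutrophil markers was 593 and 565 TPM after AAV-GFP against 1090 and 681 TPM after AAV-SHISA3, and Ly6g, a defining neutrophil gene, stayed under 1 TPM in every sample. In the LPS libraries the neutrophil sum was 4717, 9910 and 7040 normalised reads at 0, 2 and 4 h, and its part in the LPS results was not tested. By the same non-overlap measure 1 of the 9 macrophage markers was higher and 3 were lower, against 18.2% and 41.2% of all genes tested. Of 5 fibroblast markers 3 were tested and none passed. In these bulk samples, fewer cells of a type and less RNA per cell cannot be told apart. Shisa3 itself was at 7.88 and 10.9 TPM after AAV-GFP against 12.3 and 17.8 TPM after AAV-SHISA3, a log2 fold change of 0.63 (adjusted p = 0.138, limma). The AAV-SHISA3 samples were above the AAV-GFP samples, but the check of the transgene did not pass the test.

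Promoter windows of the members were taken from RefSeq (GRCm38.p6), from 250 bases before to 50 bases after the start site. Of the 8 members 7 had a window, Ripk1 had a pair of them, and Zbp1 had none in the table used. Windows were searched on both strands for the kappa B consensus and for the core of the interferon-stimulated response element, written here as a pair of GAAA with any 2 bases between them. The kappa B consensus was in 0 of the 8 windows, against 4.51% of all 32851 promoter windows, and the interferon element was in 2, against 3.44%. Both matches, the reverse strand reading as TTTC, are in capitals below, the Cflar match lying on the reverse strand, from base 6 to base 15 counted from the start site as 0, and the Ripk1 match from base -5 to base 4. A match is a description of the letters in the window. The sequences shown are those of Cflar, Mlkl and Birc3, which were at least 2-fold higher with LPS under every scaling, and of the Ripk1 window that holds a match.
Cflar, chr1:58711241-58711540, plus strand: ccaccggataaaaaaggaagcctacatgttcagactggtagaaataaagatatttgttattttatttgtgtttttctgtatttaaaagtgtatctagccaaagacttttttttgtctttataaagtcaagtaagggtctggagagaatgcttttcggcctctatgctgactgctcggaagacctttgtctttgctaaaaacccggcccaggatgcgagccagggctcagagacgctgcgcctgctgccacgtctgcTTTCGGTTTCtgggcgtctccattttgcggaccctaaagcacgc
Ripk1, second window, chr13:34002624-34002923, plus strand: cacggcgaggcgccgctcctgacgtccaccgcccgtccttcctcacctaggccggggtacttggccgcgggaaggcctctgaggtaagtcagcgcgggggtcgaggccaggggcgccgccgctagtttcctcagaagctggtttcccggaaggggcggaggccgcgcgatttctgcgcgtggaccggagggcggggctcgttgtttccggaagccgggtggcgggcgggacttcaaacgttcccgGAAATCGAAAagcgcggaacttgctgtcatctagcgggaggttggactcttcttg
Mlkl, chr8:111338156-111338455, minus strand: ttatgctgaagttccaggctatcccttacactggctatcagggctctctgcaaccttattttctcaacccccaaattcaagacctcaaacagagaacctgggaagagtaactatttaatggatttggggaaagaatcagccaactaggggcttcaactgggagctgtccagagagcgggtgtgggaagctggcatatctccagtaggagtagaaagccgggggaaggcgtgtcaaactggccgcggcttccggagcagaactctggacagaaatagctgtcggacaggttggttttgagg
Birc3, chr9:7873121-7873420, minus strand: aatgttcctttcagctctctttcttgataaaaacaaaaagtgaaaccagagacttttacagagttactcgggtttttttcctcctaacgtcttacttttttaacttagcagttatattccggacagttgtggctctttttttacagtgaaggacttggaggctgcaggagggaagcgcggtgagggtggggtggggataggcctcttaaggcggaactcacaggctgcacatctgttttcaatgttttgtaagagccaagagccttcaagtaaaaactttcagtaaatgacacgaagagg
The windows differed in base composition. The second Ripk1 window held 67% G and C and 36 CpG, while the Birc3 window held 43% and 7 CpG, the Mlkl window 51% and 7 CpG and the Cflar window 45% and 12 CpG, against a median of 52.7% and 7 CpG over all windows.

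In LPS-stimulated BMDMs the members separated into those that were already near their 4 h level at 2 h, those that were higher again at 4 h, those that differed little and Fadd, which was lower. At 2 h of LPS 4 of 8 members were at least 2-fold higher and 1 was at least 2-fold lower, against 20.5% and 24.7% of all genes. At 4 h, 5 were at least 2-fold higher and 1 lower, against 22.2% and 23.6%, and between 2 and 4 h 2 were at least 2-fold higher and 0 lower, against 17.9% and 15.2%. The median log2 difference of the members was 1.38 at 2 h and 1.74 at 4 h, and of all genes -0.05 and -0.04. There was no replicate at any time point, so these values carry no test, and the intervals given below cover counting error only (exact Poisson, 95%).

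**Figure D1:**
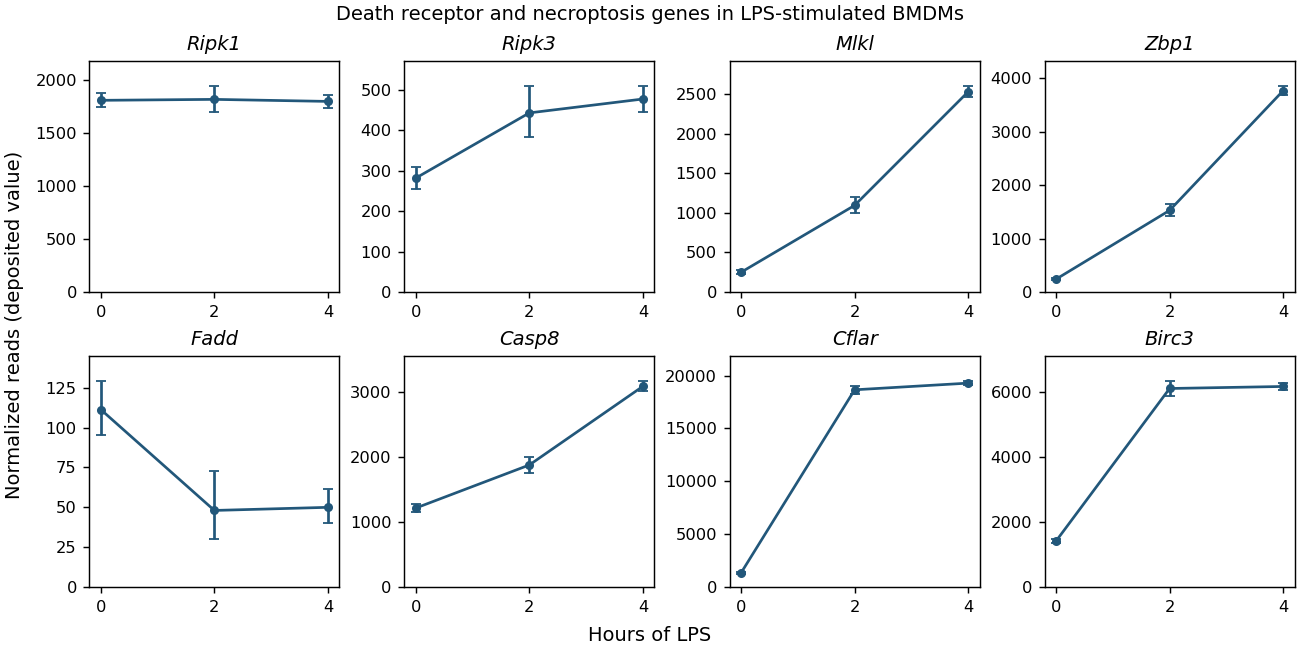
Deposited value in normalised reads (vertical axis, linear from 0, a separate scale in each panel) of each gene at 0, 2 and 4 h of LPS (horizontal axis), 1 library per point, with exact 95% Poisson intervals that cover counting error only. Cflar and Birc3 were near their 4 h level at 2 h, Mlkl and Zbp1 were higher at 4 h than at 2 h, Ripk1 differed little and Fadd was lower.

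Cflar encodes the caspase-8 regulator cFLIP and lies on chromosome 1 (58711508 to 58758884, plus strand, GRCm38, as are all positions below). Its normalised read count was 1339 at 0 h, 18651 at 2 h and 19282 at 4 h, from 2081, 8541 and 35484 recovered reads. It was 13.9-fold higher at 2 h (interval 13.3 to 14.6) and 14.4-fold higher at 4 h (interval 13.8 to 15.1), and the 4 h value was 1.03-fold the 2 h value. Birc3, which encodes the ubiquitin ligase cIAP2 (chromosome 9, 7848699 to 7873186, minus strand), stood at 1409, 6092 and 6155. It was 4.32-fold higher at 2 h (interval 4.09 to 4.57) and 4.37-fold higher at 4 h (interval 4.17 to 4.57), with little movement between the 2 later time points.

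The sensor and the executioner of necroptosis were higher at each later time. Zbp1, the sensor of Z-form nucleic acid (chromosome 2, 173206612 to 173218923, minus strand), was at 238, 1526 and 3768 at 0, 2 and 4 h. It was 6.41-fold higher at 2 h (interval 5.65 to 7.29) and 15.8-fold higher at 4 h (interval 14.3 to 17.6). That was the largest fold of the 8 at 4 h, though its interval overlaps that of Cflar (13.8 to 15.1). Zbp1 was 2.47-fold higher at 4 h than at 2 h. Mlkl, which ruptures the membrane (chromosome 8, 111311797 to 111338177, minus strand), was at 248, 1094 and 2531, from 386, 501 and 4657 reads. It was 4.41-fold higher at 2 h (interval 3.85 to 5.04), 10.2-fold higher at 4 h (interval 9.18 to 11.3) and 2.31-fold higher at 4 h than at 2 h. By log2 difference at 4 h Zbp1 ranked 436 and Mlkl 684 of the 17854 genes, Cflar 472 and Birc3 1639.

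The kinases differed less. Ripk3, which phosphorylates MLKL (chromosome 14, 55784995 to 55788865, minus strand), was at 282, 443 and 478, which was 1.57-fold higher at 2 h (interval 1.33 to 1.86) and 1.70-fold higher at 4 h (interval 1.51 to 1.91), under the 2-fold limit used for a call. Ripk1 (chromosome 13, 34002363 to 34037147, plus strand) differed little, at 1806, 1815 and 1795, with intervals of its fold change that include 1 at both times (0.929 to 1.09 at 2 h and 0.945 to 1.05 at 4 h). Ripk1 overlaps Serpinb6a on the opposite strand by 241 exonic bases, and the pseudogene Gm17084 on the same strand by 511. Serpinb6a was listed at 7051, 6940 and 4946, and Gm17084 at 412, 293 and 334. The strand of counting is not given in the sources used here, so reads in these stretches cannot be assigned to Ripk1 with certainty.

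As deposited, Casp8 was higher and its adaptor Fadd lower. Casp8 (chromosome 1, 58795374 to 58847503, plus strand) was at 1218, 1882 and 3095, 1.55-fold higher at 2 h (interval 1.42 to 1.68) and 2.54-fold higher at 4 h (interval 2.41 to 2.68). Fadd (chromosome 7, 144577318 to 144582463, minus strand) was at 111, 48 and 50, from 173, 22 and 92 reads, and was 2.32-fold lower at 2 h (interval 1.48 to 3.79) and 2.23-fold lower at 4 h (interval 1.72 to 2.90). Per length Fadd had the lowest level of the 8 at every time, and its 2 h value rests on few reads. Cflar and Casp8 lie on the same strand of chromosome 1 with 36489 bases between them, yet their time courses differed: Cflar was near its final level at 2 h and Casp8 was not.

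The scaling of the libraries moved these values by up to about 1 log2 unit. Scaling the recovered reads to equal library totals placed the median gene at -0.68 (2 h) and -0.81 (4 h), centring each library on its median placed it at 0.26 and 0.33, and edgeR's TMM factors at -0.12 and -0.09. Since a scaling shifts every gene of a library alike, the distance of a member from that median is fixed but for the pseudocount and is no check on the values: at 4 h Ripk3 was 0.75 to 0.80 above it, Casp8 1.34 to 1.39, Birc3 2.12 to 2.17, Mlkl 3.34 to 3.39, Cflar 3.84 to 3.89 and Zbp1 3.97 to 4.02, Fadd was 1.09 to 1.14 below it and Ripk1 lay between -0.02 and 0.04. Under library totals the difference at 4 h was -0.06 for Ripk3, -0.83 for Ripk1 and 0.52 for Casp8, and with centring 1.13, 0.36 and 1.72. The direction of Ripk3 and Ripk1 relative to 0 therefore depends on the scaling, and so do the 2-fold calls of Ripk3, Casp8 and Fadd (-0.77 with centring). At 2 h under library totals Casp8 was at -0.03, Ripk3 at -0.01, Ripk1 at -0.65 and Fadd at -1.85. At 4 h 6 members were at least 2-fold higher and 0 lower with centring, against 29.6% and 17% of all genes, and 4 higher and 1 lower under library totals, against 13.1% and 43.9%. Zbp1, Cflar, Mlkl and Birc3 were at least 2-fold higher under each of the 4.

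**Figure D2:**
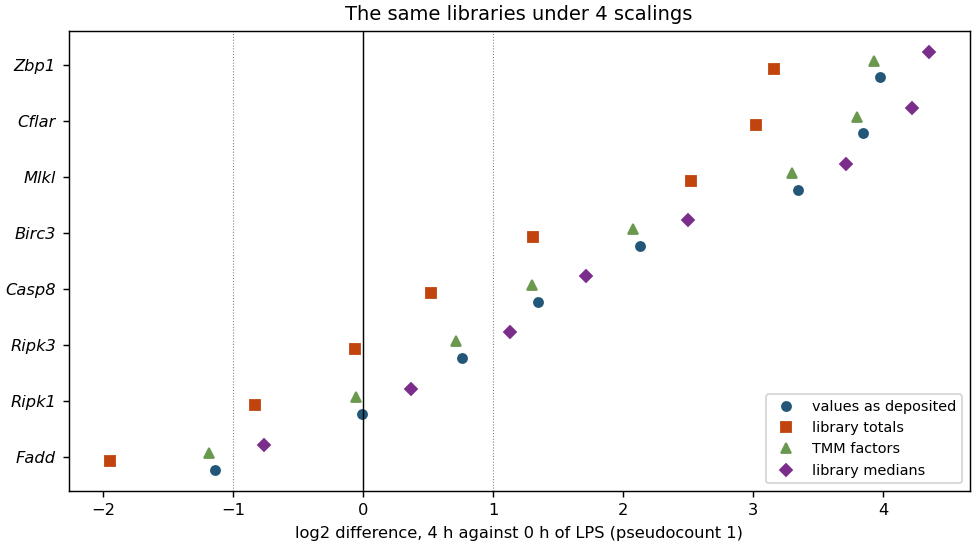
log2 difference of each gene at 4 h against 0 h of LPS (horizontal axis, log2(value + 1)) under the deposited scaling, equal library totals, TMM factors and centring on library medians. Dotted lines mark 2-fold. Zbp1, Cflar, Mlkl and Birc3 lie beyond the 2-fold line under all 4 scalings, while Ripk3 and Ripk1 straddle 0 with the choice.

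Ratios within a library do not depend on its scaling. The ratio of Cflar reads to Casp8 reads was 1.10 at 0 h, 9.91 at 2 h and 6.23 at 4 h, with intervals that do not overlap. Mlkl reads per Ripk3 read were 0.881, 2.47 and 5.30, and Zbp1 reads per Ripk3 read 0.845, 3.44 and 7.89. Fadd per Casp8 was lower at each later time, from 0.0914 at 0 h to 0.0255 at 2 h and 0.0162 at 4 h, but the intervals at 2 h (0.0159 to 0.0389) and 4 h (0.0130 to 0.0198) overlap. Birc3 per read of its chromosome 9 neighbour Birc2, which encodes the related ligase cIAP1 and lies 11634 bases away, was 3.20, 4.64 and 5.23. Its intervals at 2 h (4.25 to 5.08) and 4 h (4.99 to 5.47) overlap.

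**Figure D3:**
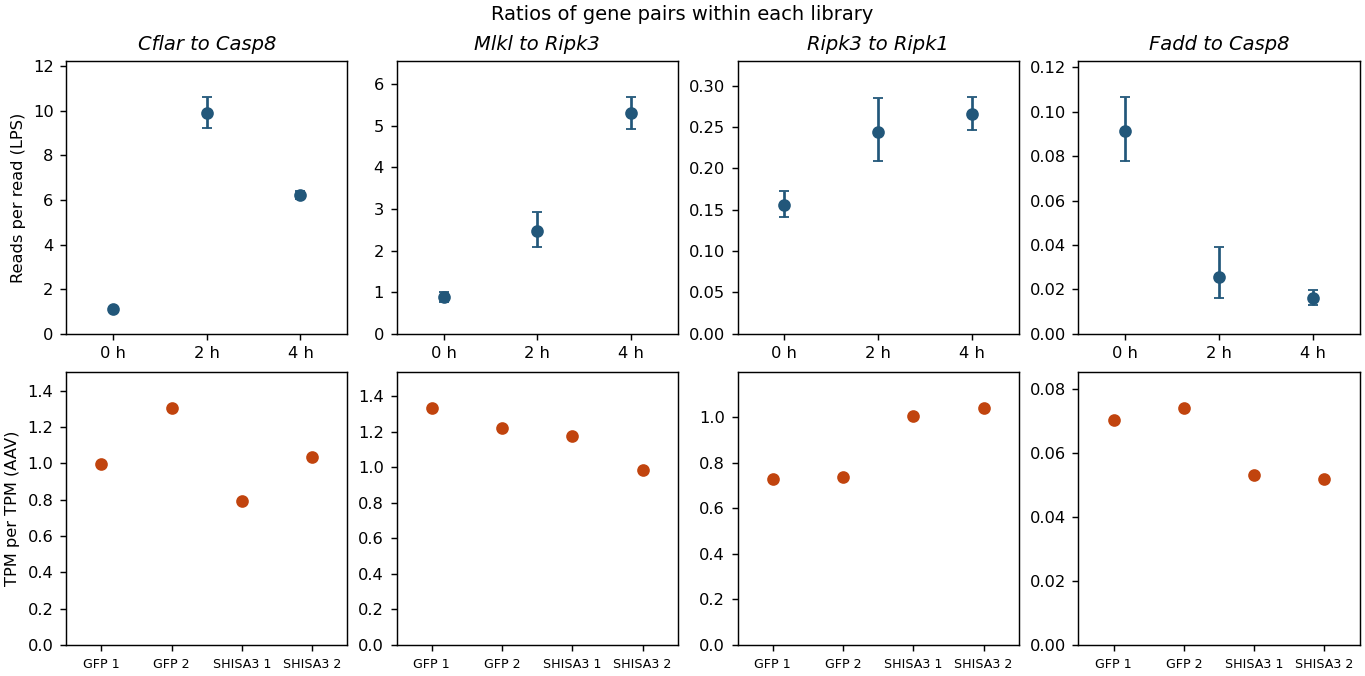
Ratio of gene pairs within each library. Upper row, reads per read in the LPS libraries with 95% intervals that cover counting error only. Lower row, TPM per TPM in the 4 transduced samples. The Cflar to Casp8 ratio peaked at 2 h of LPS. Ripk3 to Ripk1 was above 1 in both AAV-SHISA3 samples and below it in both AAV-GFP samples. Mlkl to Ripk3 and Fadd to Casp8 were lower in both AAV-SHISA3 samples, and Cflar to Casp8 overlapped between the groups.

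Around the members, a list of 49 further pathway genes, also chosen with earlier results known, was read the same way. Of these 48 passed the filter, and at 4 h 24 were at least 2-fold higher and 3 lower, against 22.2% and 23.6% of all genes. Under library totals this was 17 and 5, against 13.1% and 43.9%, and with centring on library medians 29 and 1, against 29.6% and 17%. The median log2 difference of the list was 0.94 at 2 h and 1.07 at 4 h, and of all genes -0.05 and -0.04. By role, 3 of 4 ligands, 4 of 8 receptors, 3 of 5 adaptors, 8 of 17 ubiquitin, kinase and brake genes, 3 of 8 apoptosis executioners and 3 of 7 necroptosis modulators were at least 2-fold higher. The 3 ligands include Lta, which had 0, 0 and 25 reads and passed the filter only through its 4 h value, and the remaining ligand, Fasl, did not pass the filter. Among those with the largest change were Tnf (139-fold), Tnfaip3 (87.5-fold), which encodes the deubiquitinase A20, Traf1 (56.7-fold), Tnfsf10 (33.1-fold), which encodes the ligand TRAIL, Tlr3 (13.8-fold), Tnip1 (11.3-fold), Fas (9.87-fold), Tnfrsf1b (9.63-fold), the second receptor for TNF, and Optn (9.24-fold). Tnfrsf21, Casp6 and Casp9 were the 3 that were lower.

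In transduced cells, AAV-SHISA3 was set against AAV-GFP to describe how the groups differed. Of the 8 members 1 was lower and 0 higher past the test (limma, Benjamini-Hochberg adjusted p under 0.05), against 4.1% and 2.23% of the genes tested. With each sample centred on its median the member count was 0 lower and 0 higher, and the genes called over the whole table turned from 250 higher and 460 lower to 410 higher and 230 lower. Before adjustment (p under 0.05) the member count was 2 lower and 0 higher, against 19.8% and 8.21%, so this count too was near the background. By non-overlap of the 4 samples, 3 members were lower and 2 higher, against 41.2% and 18.2% of the genes tested, so the count of lower members was near the background. The median log2 fold change was -0.20 for the members and -0.10 for all genes. Over 4 samples the smallest p of an exact two-sided permutation test is 0.333, so an adjusted p below that draws on limma's pooling of variance over genes.

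**Figure D4:**
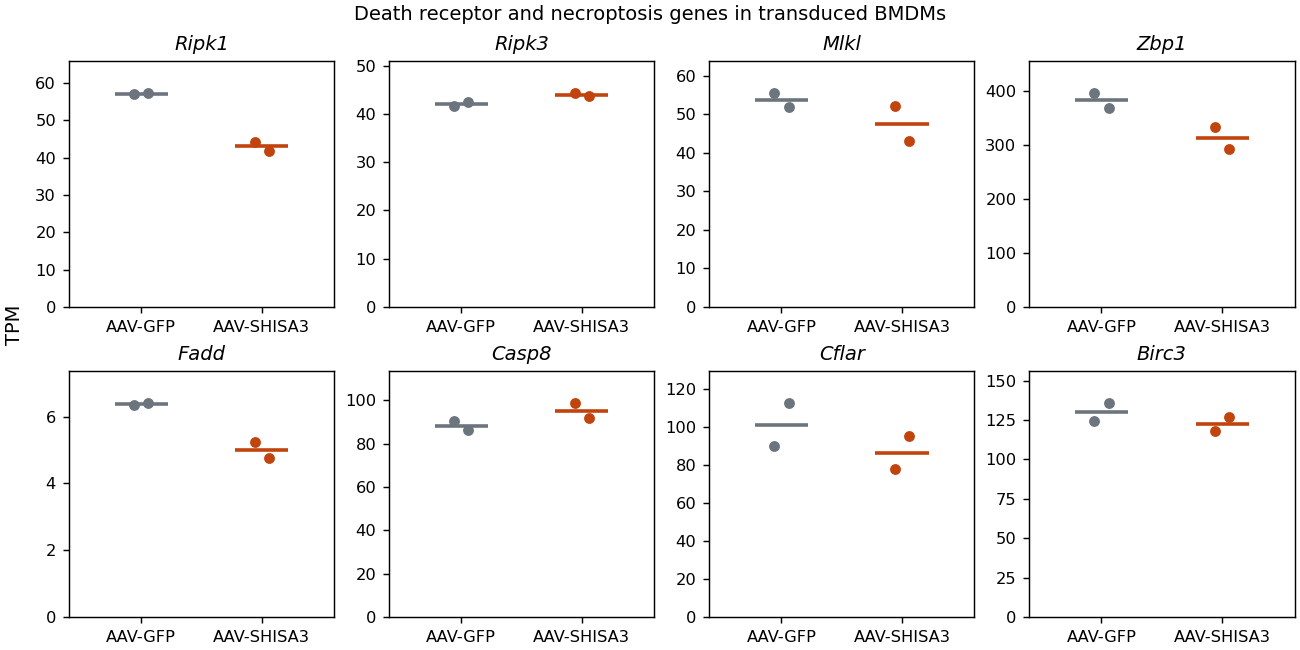
TPM of each gene (vertical axis, linear from 0, a separate scale in each panel) in the 4 transduced samples, each point a sample and each bar the mean of 2. Ripk1 shows a gap, with both AAV-SHISA3 samples between 41.9 and 44.1 TPM and both AAV-GFP samples near 57.

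Ripk1 was the member that passed. Its level was 57.0 and 57.3 TPM after AAV-GFP against 44.1 and 41.9 TPM after AAV-SHISA3. The groups did not overlap, and the mean was 24.8% lower, at 43.0 ± 1.53 TPM against 57.1 ± 0.184 (SD, n = 2 each). The log2 fold change was -0.40 (SE 0.081, adjusted p = 0.0466, limma). The call was lost without limma's trend (adjusted p = 0.0927), with centring of the samples on their medians (log2 fold change -0.29, adjusted p = 0.107), and without the filter on low values (0.117). With 1 sample left out, the lone sample of its group is assumed to vary like the other group, which alone gives the spread. Those fits called few genes in the whole table, so the adjusted p of Ripk1 in them (0.151 to 0.213) says little, and its log2 fold change ran from -0.44 to -0.37. Serpinb6a, which overlaps Ripk1, stood at 408 and 315 TPM after AAV-GFP against 372 and 318 TPM after AAV-SHISA3, so its groups overlapped. Gm17084 was at 17.7 and 11.3 against 11.4 and 12.7 TPM.

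Ripk3 and Casp8, the other kinase and the caspase, were slightly higher without overlap. Ripk3 was at 41.6 and 42.4 TPM after AAV-GFP against 44.3 and 43.7 TPM after AAV-SHISA3, and its log2 fold change was 0.07 (adjusted p = 0.627, limma). Casp8 was at 90.2 and 86.3 TPM against 98.6 and 91.8 TPM, with a log2 fold change of 0.11 (adjusted p = 0.418, limma). Neither passed. With 1 sample left out Casp8 ran from 0.06 (without AAV-SHISA3 replicate 1) to 0.16 (without AAV-SHISA3 replicate 2). With centring on sample medians Ripk3 was at 0.18 and Casp8 at 0.22. The Ripk3 to Ripk1 ratio was 0.729 and 0.740 with AAV-GFP and 1.01 and 1.04 with AAV-SHISA3, which left a gap between the groups (exact permutation p = 0.333, the smallest possible) and uses the same Ripk1 values as the test above.

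Zbp1 was the most abundant of the 8, at 396 and 369 TPM after AAV-GFP against 334 and 292 TPM after AAV-SHISA3. Its samples did not overlap and its log2 fold change was -0.29 (SE 0.091, adjusted p = 0.112, limma). Fadd was at 6.35 and 6.40 TPM against 5.24 and 4.77 TPM, a log2 fold change of -0.30 (adjusted p = 0.210, limma), and did not overlap either. With centring Zbp1 was at -0.17 and Fadd at -0.18. The Fadd to Casp8 ratio was 0.0704 and 0.0742 with AAV-GFP and 0.0531 and 0.0519 with AAV-SHISA3 (exact permutation p = 0.333). The Mlkl to Ripk3 and Zbp1 to Ripk3 ratios were also lower with AAV-SHISA3 without overlap. Cflar to Casp8 and Birc3 to Birc2 overlapped between the groups.

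The other members showed groups that overlapped. Mlkl was at 55.5 and 51.8 TPM against 52.2 and 43.0 TPM (log2 fold change -0.18, adjusted p = 0.361, limma). Cflar was at 90.0 and 113 TPM against 78.1 and 95.2 TPM (log2 fold change -0.22, adjusted p = 0.358, limma). Birc3 was at 125 and 136 TPM against 118 and 127 TPM, with a log2 fold change of -0.08 (adjusted p = 0.550, limma) that turned to 0.03 when samples were centred on their medians. With the same centring Mlkl was at -0.06 and Cflar at -0.11. Single samples moved these values: Cflar was at -0.06 without AAV-GFP replicate 2, -0.08 without AAV-SHISA3 replicate 1, -0.36 without AAV-SHISA3 replicate 2 and -0.38 without AAV-GFP replicate 1. Mlkl was at -0.04 without AAV-SHISA3 replicate 2 and -0.31 without AAV-SHISA3 replicate 1, and Birc3 ran from -0.14 without AAV-GFP replicate 1 to -0.02 without AAV-GFP replicate 2. For these 3 genes at least 1 AAV-SHISA3 sample lay above an AAV-GFP sample.

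Outside the members, 46 of the 49 wider genes were tested, and 5 were higher and 1 lower, against 2.23% and 4.1% of all genes tested. Tnfsf10 was at 2.28 and 2.52 TPM against 7.19 and 5.72 TPM (log2 fold change 1.13, adjusted p = 0.0269, limma), and Tnfrsf21, the death receptor DR6, at 5.00 and 5.75 TPM against 11.7 and 11.7 TPM (0.99, adjusted p = 0.0216, limma). Tnf was at 204 and 226 TPM against 349 and 363 TPM (0.73, adjusted p = 0.0179, limma). Tnfrsf1b was at 546 and 550 TPM against 763 and 744 TPM (0.46, adjusted p = 0.0242, limma), and Ikbkg, the regulatory subunit of the IKK complex, at 36.0 and 35.7 TPM against 50.8 and 52.7 TPM (0.52, adjusted p = 0.0295, limma). Casp9, the initiator caspase of the mitochondrial pathway, was at 24.3 and 24.2 TPM against 15.5 and 16.8 TPM (-0.56, adjusted p = 0.0356, limma). At an unadjusted p under 0.05, 9 were higher and 6 lower (8.21% and 19.8% of all genes tested). By non-overlap 12 were higher and 17 lower (18.2% and 41.2% of all genes), so the lower counts were no larger than the background. With each sample centred on its median the unadjusted counts were 13 higher and 2 lower, against 1650 and 1182 of the 11218 genes tested. All 6 calls were lost without limma's trend and without the filter on low values, and the Casp9 call also with centring. With any 1 sample left out none of the 6 passed either, but those fits called at most 27 genes higher and 7 lower in the whole table, and the log2 fold changes stayed between 0.98 and 1.27 for Tnfsf10, 0.91 and 1.08 for Tnfrsf21, 0.65 and 0.80 for Tnf, 0.49 and 0.54 for Ikbkg, 0.44 and 0.48 for Tnfrsf1b, and -0.61 and -0.50 for Casp9. Tnfrsf21 was lower with LPS, at 536, 288 and 171 normalised reads, and Casp9 too, at 510, 114 and 197. With centring on sample medians Tnfaip3 also passed as higher (0.53, adjusted p = 0.0362, limma), from 0.41 (adjusted p = 0.0671, limma) without it. The median of the wider list was -0.06. The neutrophil marker sum, given above, was higher in the AAV-SHISA3 samples, and its part in these results was not tested.

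**Figure D5:**
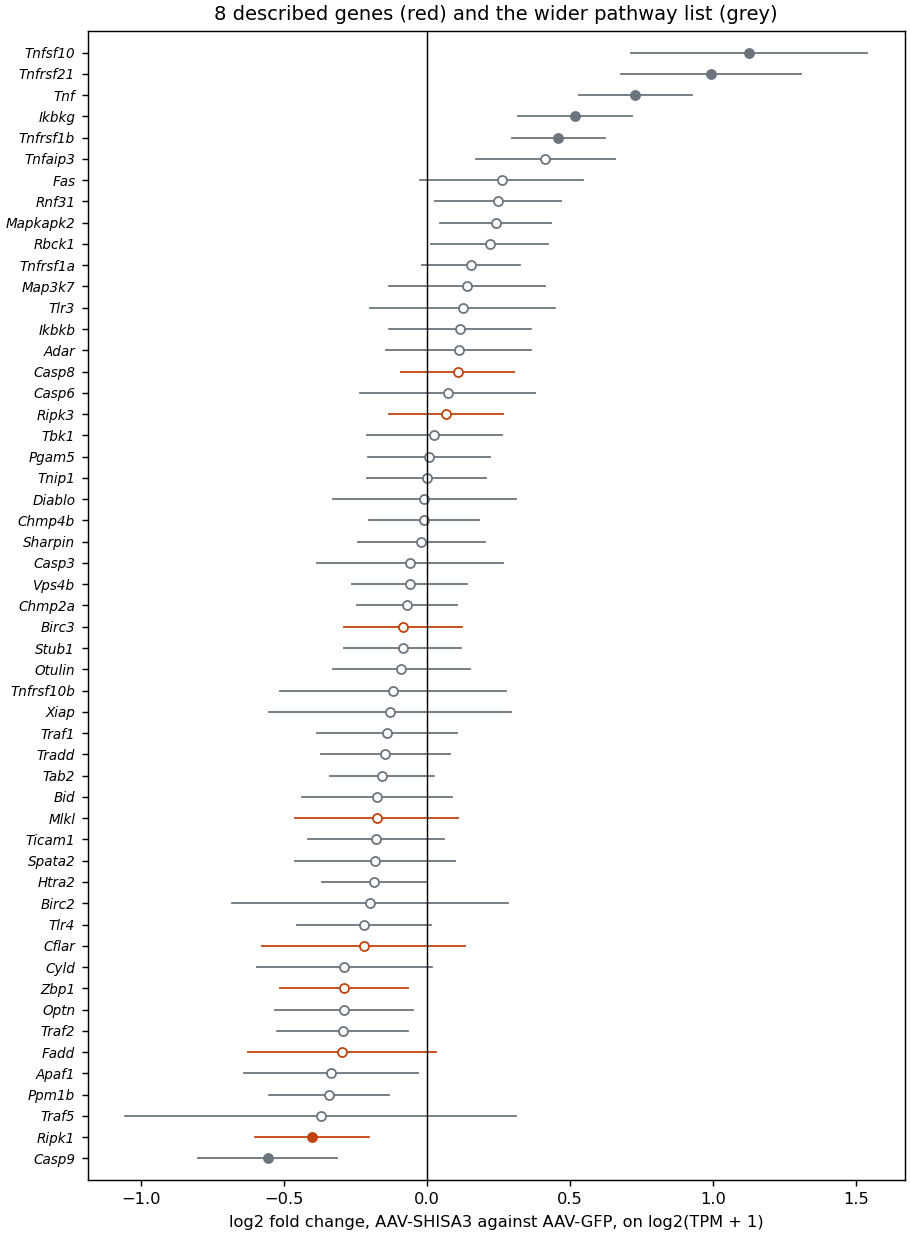
log2 fold change of AAV-SHISA3 against AAV-GFP (horizontal axis, on log2(TPM + 1)), with 95% confidence intervals from limma, for the 8 members (red) and the genes of the wider list (grey) that were tested and are reported here. Filled points passed an adjusted p under 0.05. Tnfsf10 and Tnfrsf21 lie farthest right and Casp9 and Ripk1 farthest left.

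Per length, the order of the members' levels changed with treatment. At 0 h it ran Casp8, Birc3, Ripk1, Ripk3, Mlkl, Cflar, Zbp1, Fadd, and at 4 h Cflar, Birc3, Mlkl, Casp8, Zbp1, Ripk1, Ripk3, Fadd. Counting intervals overlapped between Ripk3 and Mlkl and between Mlkl and Cflar at 0 h, and between Mlkl and Casp8, Casp8 and Zbp1, and Ripk1 and Ripk3 at 4 h, so these neighbours have no settled order. In AAV-GFP samples it ran Zbp1, Birc3, Cflar, Casp8, Ripk1, Mlkl, Ripk3, Fadd, and only Cflar and Casp8, neighbours in that order, overlapped between the samples. Zbp1, at the 48.4 percentile of 10540 genes at 0 h of LPS and the 92.9 at 4 h, was at the 96.1 percentile in AAV-GFP samples. Tables were normalised separately, so percentiles rather than values are set side by side. The experiments share no sample and no untransduced sample was analysed, so an effect of the vector on Zbp1 was not tested. For Cflar the union of exons is 12669 bases, which makes its per-length level uncertain.

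By 3 log2 differences (2 and 4 h of LPS and the transduction comparison) over 10545 genes, the nearest gene to each member was Ap3d1 for Ripk1, Sf3a2 for Ripk3, Mov10 for Mlkl, Acsl1 for Zbp1, Pla2g6 for Fadd, 4930503L19Rik for Casp8, A430093F15Rik for Cflar and Agrn for Birc3. The Euclidean distances on the log2 scale ran from 0.0179 for Fadd to 0.365 for Cflar.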

How the data were processed

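BMDM RNA-seq was analysed from 2 tables. In the LPS table, the deposited values per gene are a signal that the authors normalised, taken from the values to be whole reads divided by a size factor per library: every value was a whole multiple of 1 read within 0.1 read, and these reads were recovered. A count model needs replicates, which the LPS experiment lacks, so it was described by value, and the AAV table, in TPM as deposited by the authors, was tested. The submitters' processing notes name the build mm9. The aligner and counter are not given in the sources used here. Gene positions are from GENCODE M21, which matched 99.2% of gene IDs.

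AAV-SHISA3 was compared with AAV-GFP by limma 3.58.1 on log2(TPM + 1), with a trended prior, keeping the 11218 genes whose mean reached 1 TPM, and p-values were adjusted by Benjamini-Hochberg at 0.05. TMM factors were from edgeR 4.0.16. LPS differences are on log2(value + 1), with at least 2-fold as the call. The alternatives changed the trend, scaling, filter, pseudocount, replicate block and samples. The members and lists were chosen with earlier results of these data known. The text names all members, every wider-list gene past the threshold, the 10 largest at 4 h of LPS, of which 1 is not reported here, and each member's nearest gene; the 3 lower wider-list genes at 4 h were named after their values were seen, as were the gene pairs of the ratios. Gene symbols turned into dates affected 26 rows of the transduction table.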

Additional observations from a re-analysis of the deposited data

How the results depend on the processing

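In the AAV comparison, 1 member was lower, the wider list had 5 higher and 1 lower, and all genes 250 higher and 460 lower. Without limma's trend these became 0 members, 0 and 0 of the wider list and 1 and 4 of all genes. With each sample centred on its median there were 0 members lower, 6 of the wider list higher and 0 lower, and 410 higher and 230 lower of all genes, and the Birc3 log2 fold change turned to 0.033. Without the filter on low values there were 0 members lower, 0 and 0 of the wider list and 0 and 0 of all genes, at unadjusted p under 0.05 still 1118 higher and 2411 lower of all genes. Leaving out each sample in turn gave 0 members lower and 0 of the wider list in either direction each time, and 0 to 27 higher and 0 to 7 lower of all genes, the group with both samples alone giving the spread. With the replicate block 2 members were lower, Zbp1 joining Ripk1 (adjusted p = 0.0469, limma), and 424 and 851 of all genes; the samples share only a number, and deviations of same-numbered samples correlated at 0.188 over 11218 genes. At an unadjusted p under 0.05 in limma, 2 members were lower without the trend (all genes 811 higher and 2148 lower). Without the filter 2 were lower too (all genes as given above). With centring 1 was lower and 1 higher (all genes 1650 higher and 1182 lower, from 921 and 2216). A pseudocount of 0.1 or at least 1 TPM in every sample changed no member call. The cause of these changes was not tested.

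In the LPS experiment, centring each library on its median left 0 members at least 2-fold lower at 2 h, against 3454 of 17854 genes. It left 0 at 4 h, against 17% of all genes, where Fadd was at -0.77. For all genes, the counts under centring, library totals and TMM factors were alternatives chosen after seeing the data, and library totals gave 2438 higher and 7117 lower at 2 h and 2335 and 7845 at 4 h. With 1 library per time point no spread between samples could be measured. No depth is known for the TPM values.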
